A study of Mus musculus with 12 samples.

Results

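Small RNA libraries of 2 lines of mouse embryonic stem cells were set against each other: a Dicer null line, and TT-FHAgo2 cells kept without doxycycline (Dox). Both libraries were chosen by their labels, 1 library each, of 12 in the series. The comparison bears on which miRNAs are cut by Dicer when Argonaute is depleted, and on which reads from annotated hairpins are present without Dicer and without Argonaute alike. TT-FHAgo2 is a clonal line in which Dox drives a tagged Ago2. The series describes these cells as otherwise without Ago proteins, and the line is propagated at 0.1 µg/mL Dox. How long Dox was withheld is not given in the labels, and Ago2 protein remaining in these cells was not measured here. The Dicer null line is labelled as grown without Dox. The deleted piece of Dicer1 and the parental strain of each line are not given in the labels, so line and genotype cannot be told apart. For scale, 2 more libraries of the same cloning are given beside the pair. TT-FHAgo2 cells with Dox were induced at 2.5 µg/mL, and wildtype embryonic stem cells were the other. All 4 libraries came from RNA of 18 to 75 nt cut from a gel and were made with a ligation kit that needs a 5′ phosphate. The remaining 8 libraries of the series were cloned another way and are not analysed here.

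A miRNA gene is transcribed as a long RNA that folds into a hairpin. Drosha cuts the hairpin out, which sets the 5′ end of the 5p arm and the 3′ end of the 3p arm. Dicer then removes the loop, which sets the 3′ end of the 5p arm and the 5′ end of the 3p arm. The short duplex that results is handed to an Argonaute protein, which keeps the guide arm and discards its partner. Argonaute protects the guide from decay, and in mouse embryonic stem cells the miR-290 cluster supplies a large part of the loaded miRNAs.

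The sequences below are the reads on which the contrast turns. The first set gives the commonest Dicer null read of 4 hairpins that were abundant there and of Mir302a, which stood far above its no-Dox level, each followed by the commonest read of the same hairpin's 5p arm in cells without Dox. They are written as DNA, 5′ to 3′, and capitals mark bases past the 3′ end of the RefSeq mature 5p arm, here taken as the Dicer cut.
Mir183, Dicer null: tatggcactggtagaattcactGT
Mir183, no Dox: tatggcactggtagaattcact
Mir182, Dicer null: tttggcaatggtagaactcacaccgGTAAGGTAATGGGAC
Mir182, no Dox: tttggcaatggtagaactcacaccg
Mir21a, Dicer null: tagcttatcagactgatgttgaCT
Mir21a, no Dox: tagcttatcagactgatgttgaC
Mir293, Dicer null: actcaaactgtgtgacattttgTT
Mir293, no Dox: actcaaactgtgtgacatttt
Mir302a, Dicer null: taaacgtggttgtacttgcTTTAGA
Mir302a, no Dox: acttaaacgtggttgtacttgcT
The Dicer null read of Mir302a begins 3 nt inside the annotated start of its arm. The commonest wildtype read of Mir302a begins at the same base and ends 3 nt past the RefSeq end. For Mir21a the commonest wildtype read ends 1 nt past the RefSeq end, as the no-Dox read does. Capitals in these 2 hairpins thus include bases found in wildtype reads. The same holds for Mir183, whose 24-nt read shown for Dicer null had 370 CPM in wildtype, against 143 CPM in Dicer null cells. The 24-nt Mir21a read had 182 CPM in wildtype, against 59.9 CPM in Dicer null cells. For Mir182, a wildtype read of 537 CPM carries the first capital base. In GRCm38 (mm10), the annotated hairpins lie at chr6:30169668-30169737 (Mir183, minus strand), chr6:30165918-30165992 (Mir182, minus strand), chr11:86584067-86584158 (Mir21a, minus strand), chr7:3220343-3220422 (Mir293, plus strand) and chr3:127545496-127545564 (Mir302a, plus strand).

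The second set gives RefSeq mature arms (GRCm38) that were abundant in cells without Dox and much less so in Dicer null cells. They are written as RNA with the seed, bases 2 to 8, in capitals.
miR-92a-1-5p: aGGUUGGGauuugucgcaaugcu
miR-708-3p: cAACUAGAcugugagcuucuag
miR-299a-3p: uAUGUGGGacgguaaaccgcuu
miR-27a-5p: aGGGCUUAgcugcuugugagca
miR-16-1-3p: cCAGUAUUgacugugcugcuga
miR-30e-3p: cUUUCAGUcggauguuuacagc
miR-195a-3p: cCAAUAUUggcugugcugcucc
These 7 arms have 7 different seeds, so no seed is shared among them. Their positions in GRCm38 are chr14:115044437-115044459 (plus strand), chr7:96249496-96249517 (plus strand), chr12:109710676-109710697 (plus strand), chr8:84208685-84208706 (plus strand), chr14:61631894-61631915 (minus strand), chr4:120772618-120772639 (minus strand) and chr11:70235100-70235121 (plus strand), in the order listed.

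The libraries held 78762632 reads from Dicer null cells and 26542602 from cells without Dox, against 27829938 with Dox and 32255916 in wildtype. Values are given in counts scaled to a file total of 1000000 reads (CPM), so 3 reads, taken as the floor for a count of 0, equal 0.0381 CPM in Dicer null, 0.113 without Dox, 0.108 with Dox and 0.0930 in wildtype. The deepest library therefore resolves lower levels than the rest. Reads ended at 40 nt at the latest, so the length of any longer RNA in the gel slice is not seen. With 1 library a group there is no replicate check and no test across libraries. Intervals below are exact 95% Poisson or binomial intervals that cover counting error only, since amplified copies of 1 molecule are counted as reads of their own.

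Transcript reads bore on the labels in part. Ago1 transcripts had 407 reads in Dicer null cells and 0 in cells without Dox, with 0 with Dox and 34 in wildtype. Ago4 had 3 reads or fewer in every library, while Ago3 lay between 0.868 and 1.73 CPM. Ago2 stood at 7.63 CPM in Dicer null cells and 3.13 CPM without Dox, against 3.45 CPM with Dox and 4.40 CPM in wildtype. Short fragments of both Ago3 and Ago2 transcripts were thus present in every library, TT-FHAgo2 cells included. The Ago2 fragments did not show the induction by Dox. Dicer1 fragments stood at 1.56 CPM in Dicer null cells and 3.50 CPM without Dox, against 2.69 with Dox and 1.67 in wildtype, which checks nothing as the deleted piece is not known. Fragments of the stem cell transcripts Pou5f1, Sox2, Nanog, Zfp42, Esrrb, Lin28a, Dppa5a and Tdh were found in all 4 libraries. The fibroblast collagens Col1a1, Col1a2 and Col3a1 had 1 read or none. Mir143, a miRNA of mesenchymal cells, had 0.178 CPM in Dicer null cells and 2.45 CPM without Dox, against 152 CPM with Dox and 183 CPM in wildtype. The fibroblast miRNA miR-199a-3p had 0.0762 CPM in Dicer null cells and 0.264 CPM without Dox, against 5.89 CPM with Dox and 38.3 CPM in wildtype. The liver miRNA Mir122 had 3.72 CPM in Dicer null cells and 0.527 CPM without Dox, against 1.15 CPM with Dox and 1.09 CPM in wildtype.

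Hairpin reads as a whole did not set loss of Dicer apart from loss of Ago. They made up 1.42% of reads in Dicer null cells and 1.30% without Dox, against 10.3% with Dox and 21.1% in wildtype. The ratio of Dicer null to no Dox was 1.09. That similarity rested on hairpins that coincide with other small RNA genes, such as snoRNA and rRNA genes, whose reads stood at 11043 CPM in Dicer null cells and 8894 CPM without Dox, against 7593 CPM with Dox and 8031 CPM in wildtype. They were 77.8% of hairpin reads in Dicer null cells and 68.4% without Dox. Hairpins with a RefSeq mature sequence and no such overlap went the other way, with 1975 CPM in Dicer null cells and 2848 CPM without Dox, against 92084 CPM with Dox and 194588 CPM in wildtype. For these the ratio of Dicer null to no Dox was 0.694, or 0.608 without Mir6240 and Mir6236, which are described below. Annotated hairpins with neither had 1168 CPM in Dicer null cells, 1254 CPM without Dox, 3091 CPM with Dox and 8298 CPM in wildtype.

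**Figure D1:**
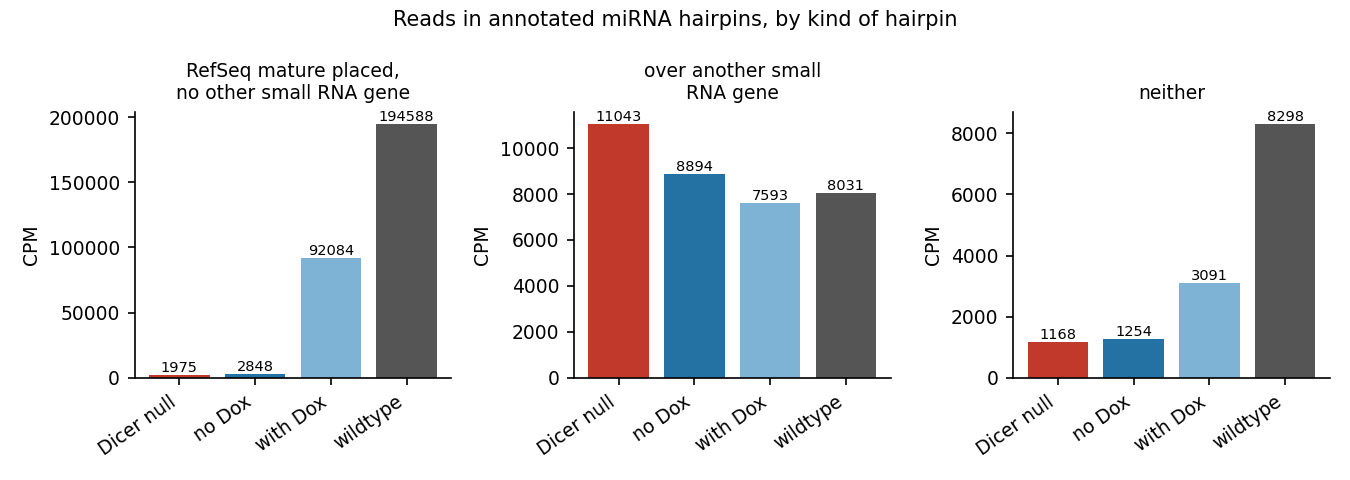
CPM of hairpin reads in each of the 4 libraries (Dicer null, no Dox, with Dox, wildtype), by kind of hairpin: a RefSeq mature sequence and no overlap, overlap with another small RNA gene, or neither, each panel with its own scale from 0. Reads over other small RNA genes lie between 7593 and 11043 CPM in all 4 libraries, whereas hairpins with a mature sequence fall to 1975 CPM in Dicer null and 2848 CPM in no Dox, against 194588 CPM in wildtype.

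Read length separated the lines more than read number. Among hairpins with a mature sequence and no overlap, 41.6% of reads were 20 to 24 nt long in Dicer null cells and 80.8% without Dox, against 96.5% with Dox and 95.3% in wildtype. Over all hairpins the same size class held 14.0% of reads in Dicer null cells and 25.9% without Dox. Reads reaching the 40-nt read end made up 51.7% of all hairpin reads in Dicer null cells and 43.0% without Dox, of which most lay over other small RNA genes. In hairpins over those genes the 20 to 24 nt share was 6.91% in Dicer null cells and 7.52% without Dox, with 7.84% with Dox and 6.55% in wildtype, a narrow range over the 4 libraries.

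Feature by feature, reads were counted for each hairpin, or for a merged feature (names joined by a slash) where the same sequence lies in several. Of 1871 features with any read, 456 had at least 100 reads over the 4 libraries. Dicer null cells had 25% or less of the no-Dox CPM in 129 of them (28.3%), and at least 4 times the no-Dox CPM in 21 (4.61%). The other 306 lay between. Counting error alone left 77 of the 129 with an interval wholly under 0.25, and 13 of the 21 with one wholly over 4. The median ratio of Dicer null to no Dox was 0.473 over all 456 features and 0.379 over the 308 with a RefSeq mature sequence. The floor enters these medians, as 55 features had 0 reads in Dicer null cells and 37 had 0 without Dox. Where 1 count was 0 and neither exceeded 3, the floor alone set the ratio, at 0.337. Just inside and just outside the limits lay Mir24-2 at a ratio of 0.2496 and the merged Mir669b feature at 0.253, a value set by counting its 0 Dicer null reads as 3. At the other end lay Mir339 at 4.16 and Mir7-1 at 3.93. Mir7-1 leaves out reads shared with Mir7-2, and the 5p arm summed over both had a ratio of 0.495. By the same limits, genes outside hairpins with 1000 reads or more gave 2 of 720 lower (0.278%) and 7 higher (0.972%).

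**Figure D2:**
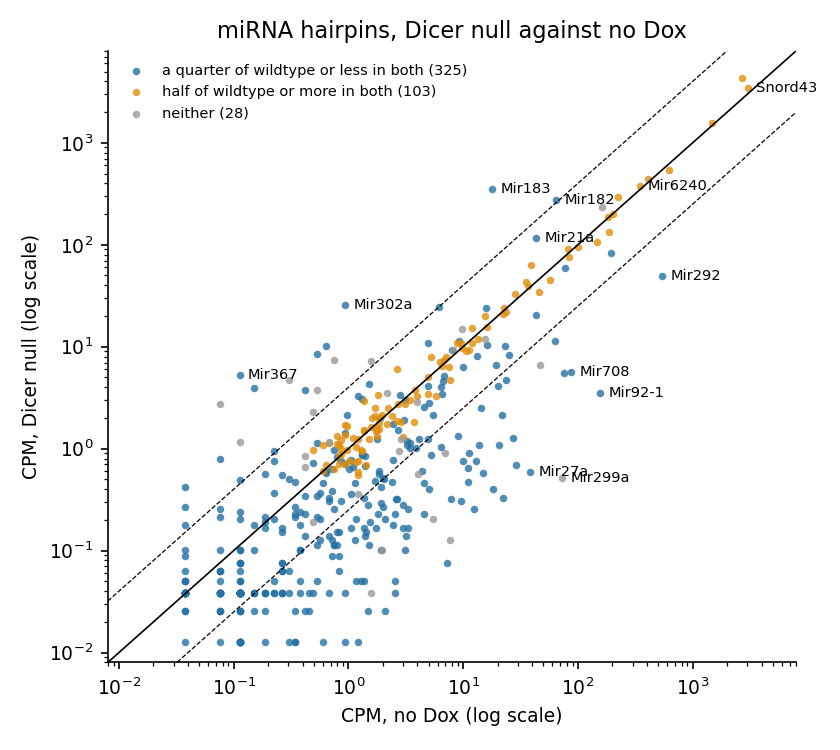
Each point is 1 of 456 hairpin features, with CPM without Dox on the horizontal and CPM in Dicer null cells on the vertical axis, both on log scales, a count of 0 drawn at 3 reads, a solid line at equal CPM and dashed lines at 4-fold either way. The 103 features kept in both lines (orange) run along the diagonal, and the 325 lost in both (blue) spread widely with most below it.

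Against wildtype, the features fell into separate sets. In both Dicer null and no-Dox cells, 325 features stood at 25% of their wildtype CPM or less, here called lost (71.3%), and 103 stood at 50% or more, called kept (22.6%); the other 28 were neither. The same wildtype library is the denominator for both lines. Lost features had a median of 0.201% of wildtype in Dicer null cells and 0.856% without Dox, against 32.7% with Dox. Of the lost features 121 were lower, 14 higher and 190 between in Dicer null relative to no Dox. All 103 kept features were between, with ratios of 0.439 to 2.31 and a median of 1.01. Kept features held 88.1% of hairpin reads in Dicer null cells and 80.1% without Dox, against 8.48% with Dox and 3.93% in wildtype.

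Length separated these sets as well. For the 107 lost features with at least 20 reads in both lines, the median share of 20 to 24 nt reads was 54.5% in Dicer null cells and 94.5% without Dox, with 99.5% in wildtype. The share was lower in Dicer null than without Dox in 99 of the 107. Kept features had a median share of 27.3% in Dicer null cells and 22.7% without Dox, close to the 28.9% of wildtype.

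The kept features were mostly annotated inside or alongside another RNA. Of the 103, 23 overlapped another small RNA gene, against 31 of all 456 features tested and 3 of the 325 lost. In 84 of the 103 at least 50% of the reads also matched a transcript of another RNA class. The same held for 70 of the 325 lost features, 65 of them most often in long non-coding or protein-coding transcripts. Snord43, a snoRNA gene whose locus is also annotated as a hairpin, had 3475 CPM in Dicer null cells and 3041 CPM without Dox, against 2826 CPM with Dox and 3653 CPM in wildtype. The merged feature Gm47285/Gm47301 had 4328 CPM in Dicer null cells and 2707 CPM without Dox, against 1930 CPM with Dox and 1560 CPM in wildtype. It was the most abundant kept feature, and 76.3% of its reads in Dicer null cells and 68.4% without Dox ran to the 40-nt read end. The hairpin Mir1291, which lies in a snoRNA gene, had 94.3 CPM in Dicer null cells and 100 CPM without Dox, against 109 CPM with Dox and 137 CPM in wildtype.

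Kept features with neither such overlap nor such shared reads numbered 17, and 3 of them stood above the rest. Reads were compared with annotated transcripts alone, among which no gene is named for the long nuclear rRNA, so reads from it need not be recognised as such. Mir6240 had 377 CPM in Dicer null cells and 345 CPM without Dox, against 285 CPM with Dox and 192 CPM in wildtype. Mir6539 had 292 CPM in Dicer null cells and 223 CPM without Dox, against 109 CPM with Dox and 72.3 CPM in wildtype. Mir6236 had 188 CPM in Dicer null cells and 183 CPM without Dox, against 129 CPM with Dox and 71.9 CPM in wildtype. All 3 were thus above wildtype in each of the other libraries. Reads of the rRNA class, from annotated rRNA genes and from Gm26917 and Gm42418, which lie over rRNA repeats, also lay above wildtype, with 6.62% of reads in Dicer null cells and 6.75% without Dox, against 5.74% with Dox and 3.27% in wildtype, and the part of rRNA in these hairpins was not tested. The commonest reads of Mir6240 and Mir6539 are shown as examples, each being commonest in both lines. That of Mir6240 starts at no RefSeq mature end, and for Mir6539 no mature sequence was placed.
Mir6240, both lines: atttctgcccagtgctct
Mir6539, both lines: gcacagtgatgaactctgagg
The Mir6240 read had 117 CPM in Dicer null cells and 106.4 CPM without Dox, and the Mir6539 read had 76.7 CPM in Dicer null cells and 70.9 CPM without Dox. Among hairpins numbered Mir5000 and above as a list, 10 of 13 features tested (76.9%) were kept, against 22.6% over all features, 1 was lost and none was lower or higher by 4-fold, against 28.3% and 4.61% over all. In the list of hairpins over another small RNA gene, 23 of 31 (74.2%) were kept and the median ratio was 1.05.

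The 3p arm, whose 5′ end is made by Dicer in the usual pathway, was where Dicer null cells departed most from cells without Dox. Reads were assigned to an arm when their 5′ end lay within 2 nt of the annotated start. Over 454 hairpins or groups of hairpins with both arms placed and no overlap with another small RNA gene, 3p reads summed to 36.5 CPM in Dicer null cells and 756 CPM without Dox, against 28816 CPM with Dox and 68512 CPM in wildtype. The 5p reads summed to 1093 CPM in Dicer null cells and 812 CPM without Dox, against 33242 CPM with Dox and 88584 CPM in wildtype. The 3p share of arm reads was thus 3.23% (3.11 to 3.35%) in Dicer null cells and 48.2% (47.7 to 48.7%) without Dox, against 46.4% with Dox and 43.6% in wildtype.

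This held arm by arm. All 15 of the 3p arms at 10 CPM or more without Dox had 25% or less of that level in Dicer null cells, with ratios of 0.00211 to 0.194 and a median of 0.0326. At 1 CPM or more, 57 of 59 did. Of the 17 5p arms at 10 CPM or more without Dox, 7 had 25% or less in Dicer null cells and 2 had at least 4 times as much. Selecting arms by their no-Dox level favours low ratios for 5p and 3p arms alike.

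The arms that were least reduced in cells without Dox were often the discarded partner. The guide was taken as the arm with more reads in wildtype and the minor arm as the rarer one, so wildtype both chose the arms and is the denominator. In 72 hairpins or groups whose guide had at least 100 CPM and whose minor arm had at least 1 CPM in wildtype, the guide stood at a median of 0.0988% of wildtype in Dicer null cells and 0.516% without Dox, against 35.7% with Dox. The minor arm stood at a median of 0.476% of wildtype in Dicer null cells and 4.26% without Dox, against 47.7% with Dox. Without Dox the minor arm held the higher percentage in 58 of the 72 pairs, compared with 42 in Dicer null cells and 51 with Dox. The quartiles without Dox were 0.346 and 0.853% for guides and 1.31 and 23.4% for minor arms, so minor arms were far more spread out.

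Taken as a percentage of the same cells with Dox, which uses no wildtype value as denominator, guides had a median of 1.64% without Dox (quartiles 1.04 and 2.37%) and minor arms 12.4% (3.51 and 46.4%). In 16 pairs the minor arm kept 25% or more of its wildtype level without Dox, and in 1 pair the guide did. Summed over all hairpins with both arms placed, the minor arm made up 14.5% of arm reads in Dicer null cells (14.3 to 14.7%) and 34.1% without Dox (33.7 to 34.6%), against 13.1% with Dox and 9.16% in wildtype.

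Which arm was the guide changed the picture in Dicer null cells but little without Dox. In the 33 pairs with a 3p guide, Dicer null cells held a median of 0.0401% of wildtype for the guide and 1.74% for the 5p partner. In the 39 pairs with a 5p guide they held 0.354% for the guide and 0.118% for the 3p partner. Cells without Dox held 0.555% for 3p guides and 4.89% for their partners, and 0.505% for 5p guides and 3.90% for theirs. In Dicer null cells the 5p arm was thus the better kept one whichever its role, whereas without Dox it was the minor one.

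**Figure D3:**
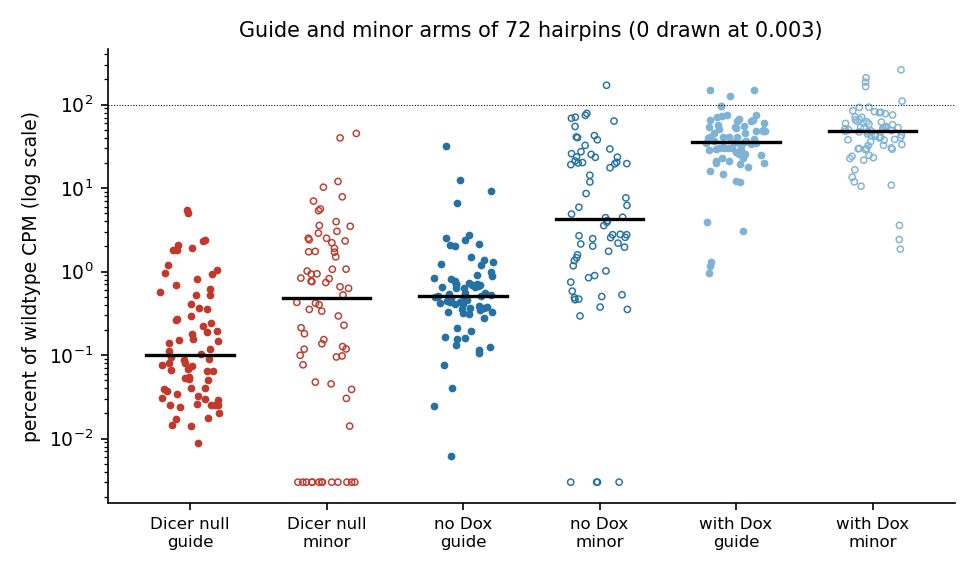
Percent of the wildtype CPM, on a log scale, for the guide (filled) and minor (open) arm of 72 hairpins in Dicer null, no Dox and with Dox, with counts of 0 drawn at the lower edge, bars at the medians and a dotted line at 100% of wildtype. Without Dox the minor arms have a median of 4.26% and reach far above the guides, whose median is 0.516%, while with Dox the medians are 47.7% for minor arms and 35.7% for guides.

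Single hairpins show arms that were present without Dox and scarce in Dicer null cells. Apart from Mir92-1, Mir299a, Mir27a, Mir16-1 and Mir30e, which a rule by ratio and abundance named, they were picked after their values were seen. miR-92a-5p, the discarded arm of a miRNA of the miR-17-92 cluster, had 1.49 CPM in Dicer null cells and 101 CPM without Dox, against 124 CPM with Dox and 59.3 CPM in wildtype. Its guide, miR-92a-3p, had 2.20 CPM in Dicer null cells and 67.4 CPM without Dox, against 2431 CPM with Dox and 6855 CPM in wildtype. Cells without Dox thus held the minor arm at 170% of wildtype and the guide at 0.984%, while cells with Dox held them at 210% and 35.5%. The commonest no-Dox read of Mir92-1 (87.0 CPM) was aggttgggatttgtcgcaatg, which stops short of the annotated mature end.

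miR-708-3p, a minor arm, had 0.165 CPM in Dicer null cells and 69.4 CPM without Dox, against 90.5 CPM with Dox and 169 CPM in wildtype. Its guide miR-708-5p had 0.622 CPM in Dicer null cells and 5.92 CPM without Dox, against 69.9 CPM with Dox and 282 CPM in wildtype. The 3p arm exceeded the 5p arm in TT-FHAgo2 cells with and without Dox, and the 5p arm exceeded it in Dicer null and wildtype cells. For miR-27, summed over Mir27a and Mir27b, the minor 5p arm had 1.02 CPM in Dicer null cells and 37.9 CPM without Dox, against 43.4 CPM with Dox and 53.5 CPM in wildtype. The 3p guide had 0.825 CPM in Dicer null cells and 9.08 CPM without Dox, against 642 CPM with Dox and 2226 CPM in wildtype.

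miR-16 belongs to a family known to restrain the cell cycle. Its 3p arms, summed over Mir16-1 and Mir16-2, had 2.46 CPM in Dicer null cells and 41.2 CPM without Dox, against 54.0 CPM with Dox and 102 CPM in wildtype. Its 5p guide had 9.76 CPM in Dicer null cells and 3.58 CPM without Dox, against 108 CPM with Dox and 509 CPM in wildtype. The 5p guide was thus higher in Dicer null cells (ratio 2.73, 2.20 to 3.41) while the 3p arm was lower (0.0598, 0.0510 to 0.0697). The higher 5p level was one of long reads, as 89.6% of them were extended past the mature end in Dicer null cells, against 3.16% without Dox. At 20 to 24 nt the order turned, with 1.36 CPM in Dicer null cells and 3.50 CPM without Dox. miR-195a-3p, of the same wider family, had 0.0508 CPM in Dicer null cells and 17.4 CPM without Dox, against 23.7 CPM with Dox and 9.55 CPM in wildtype. miR-30e-3p had 0.305 CPM in Dicer null cells and 28.9 CPM without Dox, against 59.2 CPM with Dox and 76.1 CPM in wildtype, whereas its 5p guide stood at 0.119% of wildtype in Dicer null cells and 1.37% without Dox.

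The single guide of the 72 pairs at 25% of wildtype or more without Dox was miR-299-3p, from the imprinted Dlk1-Dio3 domain. miR-299a-3p, summed over Mir299a and Mir299b, had 0.152 CPM in Dicer null cells and 72.2 CPM without Dox, against 124 CPM with Dox and 225 CPM in wildtype. The Mir299a hairpin had the lowest ratio of all 456 features, at 0.00710 (0.00508 to 0.00966), with 41 reads in Dicer null cells and 1947 without Dox. Its commonest no-Dox read, at 54.2 CPM, was 22 nt long and started 1 nt before the annotated 3p arm. Next in order were the merged Mir92-1/Mir92-2 feature, Mir92b, Mir141, Mir871, Mir140, Mir322, Mir27a, Mir142 and Mir28a, at ratios of 0.0105 to 0.0173. Their Dicer null reads numbered 1 to 47, with 1 for the merged feature and Mir871, 2 for Mir141 and Mir28a and 3 for Mir322, so counting error does not resolve their order. Mir140 had 0.330 CPM in Dicer null cells and 22.5 CPM without Dox, against 339 CPM with Dox and 1038 CPM in wildtype.

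A small set of 8 features were lower in Dicer null cells and not lost without Dox, namely Mir142, Mir16-1, Mir193a, Mir26a-2, Mir299a, Mir30c-1, Mir30c-2 and Mir671. The other 121 of the 129 lower features were lost, against 325 of all 456 features (71.3%). The 8 features held 31.3 to 128% of their wildtype CPM without Dox and 0.222 to 9.80% in Dicer null cells. Mir16-1, Mir26a-2, Mir30c-1 and Mir30c-2 appear here mostly through their minor arms, since guide reads shared with a second hairpin go to a merged feature. Their 5p guides stood at 0.703% (miR-16), 0.643% (miR-26a) and 0.545% (miR-30c) of wildtype without Dox. The miR-26a-3p arms had 0 CPM in Dicer null cells and 6.97 CPM without Dox, against 4.67 CPM with Dox and 9.36 CPM in wildtype.

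The 5p reads of Dicer null cells ran past the annotated Dicer cut. Of 5p reads from hairpins without overlap, 79.4% (79.1 to 79.7%) ended at least 2 nt past the mature 3′ end in Dicer null cells and 15.8% (15.4 to 16.3%) without Dox, against 8.47% with Dox and 6.30% in wildtype. At least 4 nt past the end lay 35.7% in Dicer null cells and 4.79% without Dox, against 0.166% with Dox and 0.0776% in wildtype. The commonest end was 2 nt past the mature end in Dicer null cells and the mature end itself in the other 3 libraries. Most of the 26869 Dicer null reads at that end came from few hairpins. Single sequences of Mir183, Mir21a, Mir293 and Mir182 gave 11289, 4715, 3410 and 3085 of them. In CPM, reads at least 4 nt past the end stood at 389.8 in Dicer null cells and 38.9 without Dox, against 55.1 with Dox and 68.7 in wildtype. At this distance the Dicer null library had the highest level. At 2 nt or more it did not. Such reads stood at 868 CPM in Dicer null cells and 129 CPM without Dox, against 2816 CPM with Dox and 5582 CPM in wildtype. Mir30e and Mir30a gave 2757 and 1021 CPM of these in wildtype, 1148 and 739 CPM with Dox, and 44.04 and 17.1 CPM without Dox. Both gave less in Dicer null cells. Wildtype reads of these 2 hairpins ended mostly past the RefSeq end. The 15.8% without Dox thus includes reads with ends common in wildtype. With Dox and in wildtype, 5p reads as a whole were also far more abundant.

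**Figure D4:**
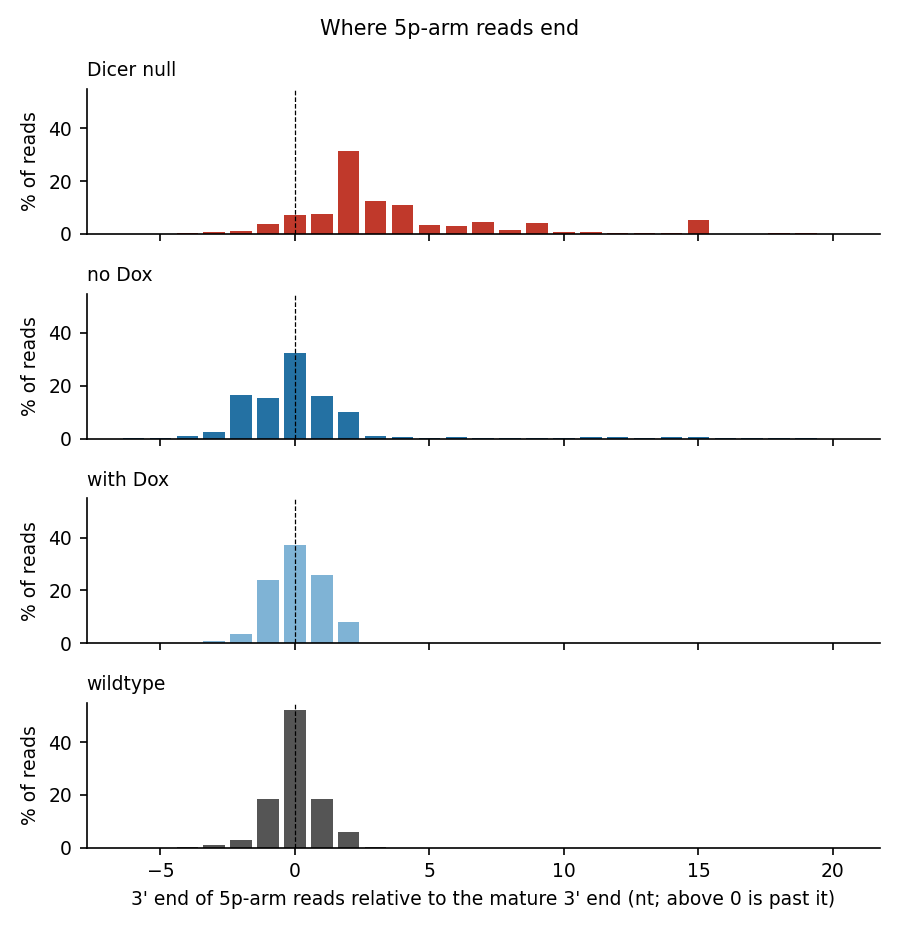
Position of the 3′ end of 5p reads relative to the mature 3′ end, in nt, with the percent of 5p reads of each library on the vertical axis, 1 panel a library, for hairpins without overlap. The dashed line marks the mature end; Dicer null reads peak 2 nt past it and trail to the right, with 79.4% at least 2 nt past it, against 15.8% without Dox and 6.30% in wildtype.

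By length, 5p reads were commonest at 24 nt in Dicer null cells and at 21 nt without Dox, against 23 nt with Dox and in wildtype. The 21-nt peak without Dox rested on Mir92-1, Mir92-2 and Mir293, since without these 3 hairpins the commonest 5p length there was 22 nt, while it remained 24 nt in Dicer null cells and 23 nt with Dox and in wildtype. The 24-nt peak in Dicer null cells leaned on few hairpins too. Of its 26081 reads, single sequences of Mir183, Mir21a and Mir293 gave 11289, 4715 and 3410. The commonest length without Mir183 and Mir21a was not tested. The 3p reads were commonest at 22 nt in all 4 libraries. Dicer null cells held 2872 reads at annotated 3p starts, 53.2% of them 22 nt long, and what made the ends of these reads was not tested.

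**Figure D5:**
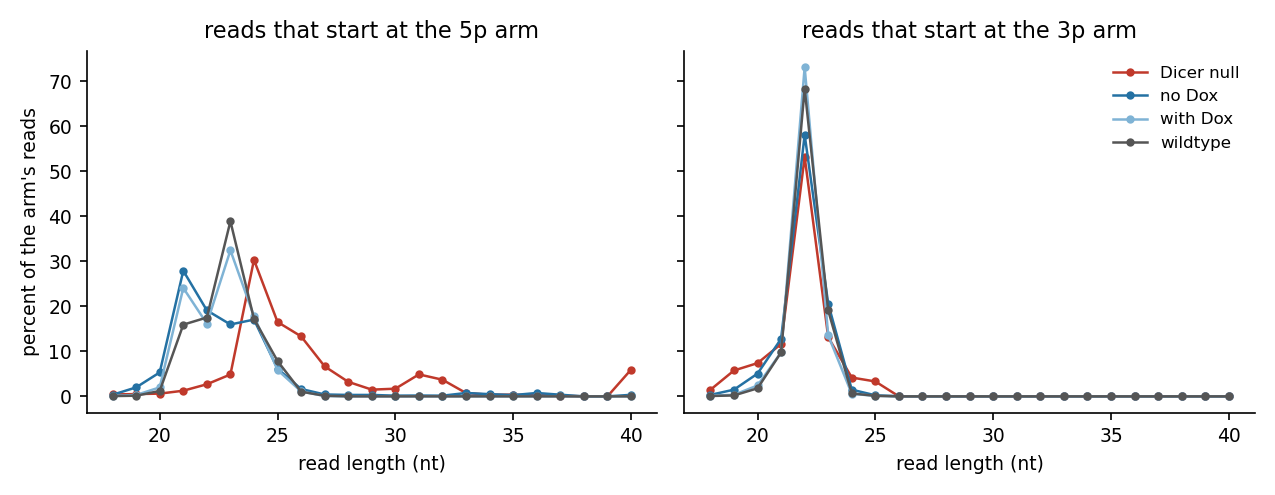
Read length in nt of reads starting at the 5p (left) and 3p (right) arms, as percent of the reads of that arm, for hairpins without overlap in the 4 libraries. The 5p reads peak at 24 nt in Dicer null cells, 21 nt without Dox and 23 nt with Dox and in wildtype, and the 3p reads peak at 22 nt in each.

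The extension was spread over hairpins. In 39 hairpins or groups with at least 100 5p reads in Dicer null cells, the median share ending at least 2 nt past the mature end was 76.8%. In the 30 that also had at least 20 such reads without Dox and in wildtype, the medians were 80.3% in Dicer null cells and 5.29% without Dox, against 0.892% in wildtype. The share was higher in Dicer null cells than without Dox in 27 of the 30, and higher than in wildtype in all 30. The exceptions against no Dox were Mir30a (86.76% in Dicer null cells, 86.81% without Dox), Mir30e (95.2% in Dicer null cells, 96.1% without Dox) and Mir350 (100% in both). For these 3, wildtype reads too ended mostly past the RefSeq end, in 67.9, 82.4 and 98.1% of cases.

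The 10 highest ratios of Dicer null to no Dox ran from 10.4 to 46.7 and belonged to Mir302d, Mir455, Mir10b, Mir205, Mir532, Mir183, the merged Mir181a-1/Mir181a-2, Mir302a, Gm47285 and Mir367, in rising order. The no-Dox reads behind them were few, with 1 for Mir455, 2 for Mir302d and Gm47285, 4 for the merged Mir181a feature and 0 for Mir367, so the order among these is not resolved either. Mir183, a sensory-cluster miRNA also abundant in stem cells, had 352 CPM in Dicer null cells and 17.9 CPM without Dox, against 1710 CPM with Dox and 6344 CPM in wildtype, a ratio of Dicer null to no Dox of 19.6 (17.9 to 21.6). Its 24-nt read shown above, with GT past the cut, had 143 CPM in Dicer null cells and 1.85 CPM without Dox, against 370 CPM in wildtype. Its 22-nt mature read had 9.53 CPM without Dox and 2754 CPM in wildtype. Of its 5p reads 96.0% were extended in Dicer null cells and 18.4% without Dox. Its 3p arm had 0 CPM in Dicer null cells and 0.0754 CPM without Dox, against 4.85 CPM with Dox and 15.0 CPM in wildtype.

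Mir182, from the same cluster, had 278 CPM in Dicer null cells and 64.4 CPM without Dox, against 2385 CPM with Dox and 12171 CPM in wildtype. Its commonest Dicer null read reached the 40-nt read end (56.4 CPM) and carried 15 bases past the cut, so its true end is not known. Extended reads were 59.9% of its 5p reads in Dicer null cells and 0.762% without Dox. Mir21a, a widely expressed miRNA, had 116 CPM in Dicer null cells and 43.5 CPM without Dox, against 4701 CPM with Dox and 4899 CPM in wildtype. Its extended share was 90.4% in Dicer null cells and 8.55% without Dox.

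Several of the 21 higher features were also scarce in TT-FHAgo2 cells that had Dox. In 12 of the 21 (57.1%) cells with Dox held 25% of wildtype or less, compared with 129 of all 456 features and 33 of the 129 lower ones (25.6%). Mir302a had 25.5 CPM in Dicer null cells and 0.942 CPM without Dox, against 14.0 CPM with Dox and 737 CPM in wildtype. Mir205 had 10.2 CPM in Dicer null cells and 0.640 CPM without Dox, against 5.68 CPM with Dox and 571 CPM in wildtype. Mir367 had 416 reads in Dicer null cells and 0 without Dox, a ratio of 46.7 with the 0 counted as 3 reads. It had 0.323 CPM with Dox and 26.6 CPM in wildtype. For these features the lines differed with Ago2 present as well, and the part of line in the difference was not tested. Mir183 held 27.0% and Mir21a 96.0% of wildtype with Dox.

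The stem cell cluster of Mir290a to Mir295 was reduced in both lines, and its summed level was lower in Dicer null cells. Its 7 features summed to 230 CPM in Dicer null cells and 889 CPM without Dox, against 47712 CPM with Dox and 74911 CPM in wildtype. All 7 were lost, against 71.3% of all features, and 2 (28.6%) were lower in Dicer null cells and none was higher, against 28.3% and 4.61% of all. The median ratio of 0.474 was likewise close to the 0.473 of all features. Mir292 had 49.8 CPM in Dicer null cells and 546 CPM without Dox, against 27760 CPM with Dox and 31732 CPM in wildtype. Mir293 had 82.7 CPM in Dicer null cells and 193 CPM without Dox, against 14648 CPM with Dox and 27630 CPM in wildtype.

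The arms of this cluster split by side. miR-293-3p had 4.76 CPM in Dicer null cells and 96.8 CPM without Dox, against 8879 CPM with Dox and 18353 CPM in wildtype. miR-293-5p had 76.2 CPM in Dicer null cells and 94.3 CPM without Dox, against 5762 CPM with Dox and 9271 CPM in wildtype. Its 5p reads were of different lengths, as 76.8% were extended in Dicer null cells and 5.48% without Dox. miR-295-5p stood at 51.2 CPM in Dicer null cells and 26.5 CPM without Dox, against 55.5 CPM with Dox and 113 CPM in wildtype, while miR-295-3p stood at 2.18 CPM in Dicer null cells and 48.4 CPM without Dox, against 2205 CPM with Dox and 7204 CPM in wildtype. The miR-295-5p reads of Dicer null cells were likewise long, 96.3% of them extended, against 41.1% without Dox, and at 20 to 24 nt this arm stood at 10.4 CPM in Dicer null cells and 16.2 CPM without Dox.

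The miR-302 cluster, which includes Mir367 and is likewise tied to pluripotency, differed in direction. Of its 6 features 3 were higher in Dicer null cells, against 4.61% of all features, none was lower, against 28.3%, and all 6 were lost, against 71.3%. The median ratio was 5.67. They summed to 31.9 CPM in Dicer null cells and 1.54 CPM without Dox, against 48.3 CPM with Dox and 3574 CPM in wildtype. The cluster thus stood at a small part of its wildtype level in TT-FHAgo2 cells even with Dox.

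The other lists are given beside the shares over all features, which were 28.3% lower, 4.61% higher and 71.3% lost. Of the 17 features of miR-17-92 and its paralogs, which promote proliferation, 7 (41.2%) were lower and 1, Mir18b, was higher, and 16 (94.1%) were lost. Mir25 had 1.28 CPM in Dicer null cells and 27.2 CPM without Dox, against 498 CPM with Dox and 1902 CPM in wildtype. Of 39 features of the imprinted Dlk1-Dio3 domain, 14 (35.9%) were lower and 1 was higher, with a median ratio of 0.472. Of 36 features of the rodent cluster in the Sfmbt2 intron, 9 (25%) were lower, none was higher and all 36 were lost. Their median was 14.8% of wildtype in cells with Dox, so they were low in the TT-FHAgo2 line with Ago2 present as well. Of the 7 tested features of let-7, a family that rises on differentiation, 1 (14.3%), Mirlet7g, was lower. Mirlet7g had 0.317 CPM in Dicer null cells and 2.64 CPM without Dox, against 66.3 CPM with Dox and 50.4 CPM in wildtype. Of the 35 features of widely abundant miRNAs, 18 (51.4%) were lower and 3 higher, with a median ratio of 0.2495.

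Hairpins known not to need Drosha fell below the 25% limit in Dicer null cells in the 4 cases tested, against 28.3% of all features, though on few Dicer null reads. Start-site hairpins, whose 5′ end is the transcription start, passed the read minimum in 2 cases. Mir320 had 0.254 CPM in Dicer null cells and 12.4 CPM without Dox, against 89.9 CPM with Dox and 136 CPM in wildtype. Mir484 had 0.114 CPM in Dicer null cells and 1.51 CPM without Dox, against 120 CPM with Dox and 160 CPM in wildtype. The mirtrons Mir877 and Mir1981, which splicing releases, were lower in Dicer null cells as well, on 4 reads each there against 34 and 6 without Dox. The ratio of Mir1981 had an interval of 0.0466 to 0.947, so counting error does not place it under the limit. Mir451a, known to be cut by Ago2 in place of Dicer, had too few reads to be included, with 26 in Dicer null cells and 4 without Dox.

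Untemplated 3′ bases did not set the lines apart in total. Arm reads with 1 to 3 bases added made up 14.0% (13.8 to 14.2%) in Dicer null cells and 14.3% (14.0 to 14.6%) without Dox, against 15.4% with Dox and 17.2% in wildtype. Tails of U made up 5.06% of arm reads in Dicer null cells and 5.15% without Dox, against 3.12% with Dox and 3.71% in wildtype. Tails of A made up 2.83% in Dicer null cells and 3.12% without Dox, against 5.15% with Dox and 5.78% in wildtype. U tails thus exceeded A tails in both lines lacking Dicer or Ago, and the reverse held in the other 2 libraries. Tails of C made up 4.38% in Dicer null cells and 4.10% without Dox, against 4.53% with Dox and 4.80% in wildtype. They exceeded A tails in both lines lacking Dicer or Ago and U tails in the other 2 libraries. These shares pool all arms, and the arms that made up the reads differed between libraries. Mir183 and Mir182 gave 31627 and 23617 of 115634 arm reads in Dicer null cells. In wildtype they gave 238136 and 474980 of 6126933. The part of this make-up in the order of U and A tails was not tested. On 3p arms the tailed share was 21.2% in Dicer null cells and 16.3% without Dox, against 17.6% with Dox and 19.7% in wildtype.

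Outside hairpins, the largest differences between the lines include genes at which both TT-FHAgo2 libraries lay on the same side. Gm28438 had 0.279 CPM in Dicer null cells and 108 CPM without Dox, against 155 CPM with Dox and 0.124 CPM in wildtype. The mitochondrial transcript mt-Nd3 had 138 CPM in Dicer null cells and 12.7 CPM without Dox, against 15.7 CPM with Dox and 78.6 CPM in wildtype. Peg3, an imprinted gene, had 15.0 CPM in Dicer null cells and 1.85 CPM without Dox, against 1.40 CPM with Dox and 2.95 CPM in wildtype. At these 3 genes cells with Dox differed from Dicer null cells in the same direction as cells without it, and the part of line in them was not tested. The Y RNA gene Rny1 had 3216 CPM in Dicer null cells and 1180 CPM without Dox, against 1043 CPM with Dox and 7218 CPM in wildtype.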

How the data were processed

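Per the file contents, each deposited file pairs every distinct small RNA sequence with its read count, left unscaled by the authors. No source used here describes adapter trimming or read filters. Reads of 18 nt or more were matched exactly, on the sense strand and over their whole length, to GENCODE M21 transcripts (GRCm38) with Python 3.11.15 and numba 0.67.0. Matched reads were 35.2% in Dicer null, 34.2% without Dox, 39.9% with Dox and 47.0% in wildtype. Counts were scaled to 1000000 reads of the file. Exact intervals came from scipy 1.17.1. Mature arms came from RefSeq, placed by exact match in 1022 of 2202 annotated hairpins, 660 with both arms. Arm reads started within 2 nt of a mature start, and tails were 1 to 3 unmatched 3′ bases after at least 18 matched bases. Steps were tested on simulated data. Named hairpins were the 10 lowest and 10 highest ratios, the 10 most abundant in each line and among those kept, and the leading members of each list. Members and lists were chosen with earlier results of these data known. Alternatives varied scaling, length, read minimum, fold limit, shared sequences, arm rules and tail length.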

Additional observations from a re-analysis of the deposited data

How the results depend on the processing

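Of 71 values recomputed, 29 of 44 counts of hairpins stayed within 1.5 times the reported count. The ratio of hairpin share moved from 1.09 to 1.06 on matched reads outside hairpins, 1.08 on reads of 18 nt or more, 1.01 on snoRNA reads and 1.07 with untemplated bases allowed. It turned to 0.592 on hairpin reads of 20 to 24 nt, to 0.694 on hairpins with a RefSeq mature sequence and no overlap, and to 0.608 on these without Mir6240 and Mir6236, both chosen after seeing the data. Counts of lower and higher features were 234 and 40 at 2-fold and 64 and 11 at 10-fold. Higher features numbered 11 on 20 to 24 nt reads and 12 at 1000 reads or more. Kept features numbered 54 on 20 to 24 nt reads, 219 at 20 reads or more, 38 at 1000 reads or more and 36 on sequences found in 1 hairpin, and lost features numbered 202 at 1000 reads or more. With each distinct sequence counted once, 2 were lower, 0 higher, 53 kept and 2 lost, since abundance is then discarded. The 20 to 24 nt share was 39.1% in Dicer null and 65.8% in no Dox without overlapping hairpins, 31.6 and 37.9% with distinct sequences counted once, and 17.1 and 33.0% without the most abundant hairpin. The minor arm share was 1.05% in Dicer null and 19.3% in no Dox as a median over hairpins, 14.8 and 39.6% with exact starts, and 14.3 and 29.7% with minor arms taken from the library with Dox. Tailed reads were 11.6% in Dicer null and 11.7% in no Dox for single-base tails, and 14.7 and 15.3% as medians. The extended 5p share was 35.7% in Dicer null and 4.79% in no Dox at 4 nt or more, and 77.7 and 16.9% without Mir183 and Mir182, both chosen after seeing the data. Where no construction of an alternative shows it, the cause was not tested. No paired analysis was possible because each group had 1 library. The depth of the no-Dox library limits ratios of features with few reads.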
